A study of Mus musculus with 12 samples.

Results

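The MHC and antigen presentation genes of mouse skin were taken as all rows of the deposited gene table whose symbol starts with H2-, together with B2m, Cd74, Tap1, Tap2, Tapbp, Ciita, Nlrc5, Psmb8, Psmb9, Psmb10, Erap1 and Ctss. This gave 48 genes of 18858, of which 36 were H2- rows and 12 were the other named genes. For the contrast of class I with class II, 34 genes were placed in the class I arm (25 chain rows and 9 genes of peptide supply, loading and regulation) and 13 in the class II arm (10 chain rows with Cd74, Ciita and Ctss). H2-Ke6, an enzyme gene that lies within the MHC and encodes no MHC chain, was kept apart. A filter on low counts left 42 genes to test, 29 in the class I arm and 12 in the class II arm besides H2-Ke6. The genes not tested were H2-M1, H2-M10.2, H2-M11, H2-T18 and H2-T3 of class I and H2-Eb2 of class II, with 0 to 6 counts in each deposited column.

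Skin of 8-week-old mice of the inbred albino strain BALB/C was profiled, with strain and tissue the same in every group. The labels name 4 treatment groups with 3 samples each: TL+L, TSeL, TSeL+L and the control PBS, by its usual meaning phosphate-buffered saline. The abbreviations TL, TSeL and L are not spelled out, and nothing says whether each sample was its own animal, so a p-value here reflects only the variation among these samples, which may be technical. The 3 columns of TSeL were nearly the same as each other, close to counting noise, as were the 3 columns of TSeL+L, and each set was averaged into 1 sample. Every comparison thus uses 3 PBS and 3 TL+L samples and a single sample for each of the others, whose variation was taken to equal that of the replicated groups. Totals were 16630580 to 17318158 estimated counts per column. Levels are given as CPM (counts scaled to the effective library size). Levels of different genes are ranked as TPM (which also accounts for transcript length), for the PBS and TL+L samples. Ratios between genes, class scores and sums of markers use CPM and so carry transcript length. They are meant for comparison between samples. Keratinocyte markers were detected in every sample, at 7036.9 to 14884.7 summed CPM over 6 genes, as the tissue label states.

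Class I molecules are a heavy chain paired with beta-2 microglobulin (B2m). They show peptides from the cytosol, cut by the immunoproteasome (Psmb8, Psmb9, Psmb10), carried into the endoplasmic reticulum by the TAP transporter and loaded with the help of tapasin (Tapbp), to CD8 T cells. Class II molecules are pairs of alpha and beta chains made mainly by dendritic cells, macrophages and B cells; the invariant chain Cd74 guides them to endosomes, cathepsin S (Ctss) degrades it, and H2-DM loads the peptide that is shown to CD4 T cells. Nlrc5 drives class I and Ciita class II transcription, and interferon gamma is a known inducer of both. BALB/C mice carry the d haplotype of the MHC. They express the E alpha chain, whose gene is inactive in the C57BL/6 strain and is listed in the deposited table as the pseudogene H2-Ea-ps.

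Promoters of a few chains and of Tap1 are shown because the arms of this gene set are known to share some promoter elements and not others. The windows are from RefSeq (GRCm38.p6) and run from 250 bases before to 50 bases after a gene start. The letters in capitals match one of 4 motifs on either strand: GATTGG (the Y box core), ACNGATG (part of the X box), GAANNGAAA (the core of the interferon-stimulated response element) and GGGGATTCC (an NF-kappaB site of the class I enhancer). No matches overlap in these windows.
H2-K1 (chr17:34000298-34000597, minus strand): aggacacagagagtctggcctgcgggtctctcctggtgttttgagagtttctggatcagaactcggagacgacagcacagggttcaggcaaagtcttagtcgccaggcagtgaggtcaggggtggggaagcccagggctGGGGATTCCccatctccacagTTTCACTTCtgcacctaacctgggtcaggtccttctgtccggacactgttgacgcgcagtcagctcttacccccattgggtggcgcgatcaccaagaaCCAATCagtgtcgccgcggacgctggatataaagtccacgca
H2-D1 (chr17:35262844-35263143, plus strand): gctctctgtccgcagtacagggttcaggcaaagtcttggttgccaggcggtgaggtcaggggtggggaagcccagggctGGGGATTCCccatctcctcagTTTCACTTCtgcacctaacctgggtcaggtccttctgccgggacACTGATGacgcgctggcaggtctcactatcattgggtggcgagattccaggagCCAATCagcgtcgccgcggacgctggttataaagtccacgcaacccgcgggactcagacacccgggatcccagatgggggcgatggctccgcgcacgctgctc
Tap1 (chr17:34187306-34187605, plus strand): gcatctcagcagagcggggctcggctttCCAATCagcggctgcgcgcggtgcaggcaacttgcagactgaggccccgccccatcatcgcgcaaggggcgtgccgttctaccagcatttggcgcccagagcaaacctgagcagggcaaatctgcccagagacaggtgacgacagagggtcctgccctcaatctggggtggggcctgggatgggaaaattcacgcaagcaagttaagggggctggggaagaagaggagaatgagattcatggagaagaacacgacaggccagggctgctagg
H2-Aa (chr17:34287774-34288073, minus strand): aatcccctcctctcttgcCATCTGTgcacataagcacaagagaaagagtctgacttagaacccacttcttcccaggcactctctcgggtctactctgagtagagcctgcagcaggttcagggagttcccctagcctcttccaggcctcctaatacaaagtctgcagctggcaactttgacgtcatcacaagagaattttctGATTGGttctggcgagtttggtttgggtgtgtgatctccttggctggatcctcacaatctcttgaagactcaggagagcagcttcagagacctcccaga
H2-Eb1 (chr17:34305617-34305916, plus strand): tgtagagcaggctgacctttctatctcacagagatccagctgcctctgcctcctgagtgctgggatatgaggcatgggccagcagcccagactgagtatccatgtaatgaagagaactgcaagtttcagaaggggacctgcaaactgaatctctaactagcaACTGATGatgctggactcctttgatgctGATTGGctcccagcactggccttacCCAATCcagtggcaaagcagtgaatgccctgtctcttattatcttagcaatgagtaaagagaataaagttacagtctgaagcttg
H2-K1 and H2-D1 both hold GGGGATTCC followed by the interferon element, at -111 and -90 from the start in H2-K1 and at -171 and -150 in H2-D1. From a second listed start of H2-K1 the same matches are at -125 and -104. H2-Aa and H2-Eb1 hold neither, and both hold GATTGG and ACNGATG, but in different arrangements. In H2-Aa ACNGATG is at -232, on the other strand and far upstream of GATTGG at -49. In H2-Eb1 ACNGATG is at -88, close upstream of its GATTGG matches. Whether the H2-Aa match of ACNGATG belongs to an X box was not tested. Tap1 holds 1 match, GATTGG, in a window that overlaps that of Psmb9 on the opposite strand. A window was found for 35 of the 48 genes. Among tested genes with a window, GGGGATTCC was present in 4 of 21 in the class I arm (H2-K1, H2-D1, H2-Q6 and H2-Q7) and in 0 of 8 in the class II arm, against 0.25% of 32851 windows of all genes. GAANNGAAA was present in 8 of 21 and 1 of 8, against 7.52% of all windows. GATTGG was present in 12 of 21 and 6 of 8, against 16.1%, and ACNGATG in 9 of 21 and 6 of 8, against 9.85%. A second window of H2-DMa, which these counts leave out, holds GATTGG at -199. These are matches of letters in the RefSeq reference, which is not the BALB/C haplotype, and no binding was measured.

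In each of the 6 PBS and TL+L samples the highest of these genes by TPM were, in the same order, B2m, H2-K1, H2-D1, H2-Aa and Cd74. In PBS their means were 1834.5, 1507.0, 1330.8, 1245.7 and 1088.0 TPM. Ctss held rank 6 in all PBS samples and rank 8 or 9 in the TL+L samples. H2-K1 and H2-D1 together made up 75.1% to 78.3% of the TPM of all class I chains in these samples. The whole set took 0.581% (TL+L replicate 3) to 1.49% (PBS replicate 3) of all TPM. The E alpha row H2-Ea-ps had 662 TPM in PBS, close to the 678 TPM of H2-Ab1. Where the authors' reference differs from the d haplotype, reads of these polymorphic chains could be missed or assigned to a neighbour, which would touch levels in all groups; the reference is not given in the sources used here.

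**Figure D1:**
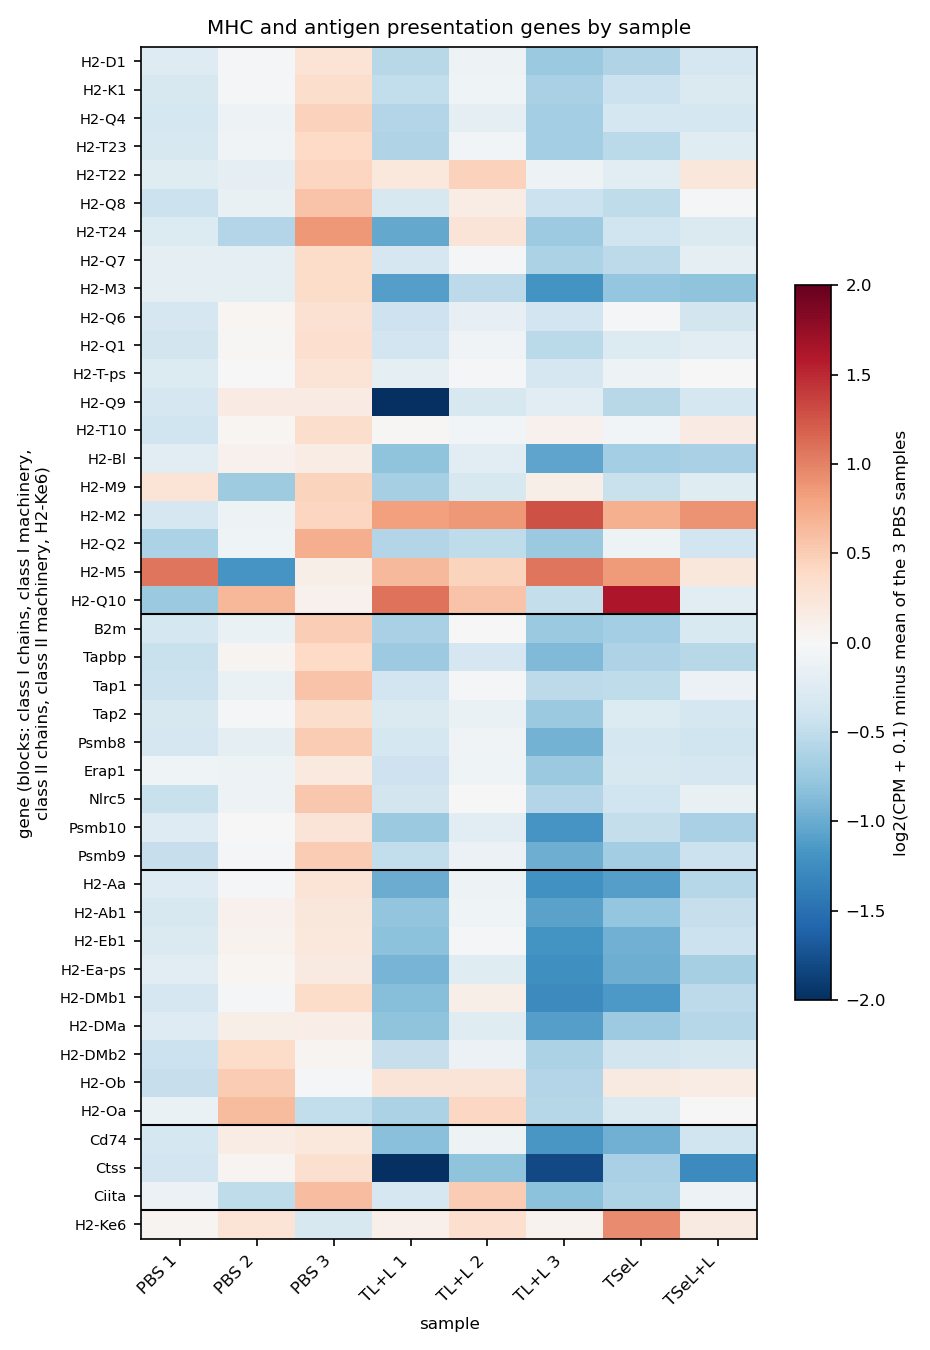
Level of each of the 42 tested genes in each of the 8 samples, as log2(CPM + 0.1) minus the mean of the 3 PBS samples; colours stop at 2 and -2, and lines separate class I chains, class I machinery, class II chains, class II machinery and H2-Ke6. Most rows are blue (lower) in TL+L replicates 1 and 3 and in TSeL, and paler in TL+L replicate 2.

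In TL+L, set against PBS, genes of both arms were lower in TL+L by moderate amounts, and none passed the test. Of the 42 genes, 37 had a lower fitted level in TL+L, against 48.9% of all 15791 genes tested, and the median log2 fold change was -0.44, against 0.01 over all genes. With edgeR (quasi-likelihood test, Benjamini-Hochberg adjustment over all genes) 0 of 42 genes were called at an adjusted p under 0.05, while 12.8% of all genes were. At an unadjusted p under 0.05 there were 7 (Ctss, H2-M3, H2-M2, H2-DMa, H2-Ea-ps, Tapbp and Psmb10), against 36.3% of all genes. The limma-voom test called 1 (Ctss), against 13% of all genes, and DESeq2 called 3 (Ctss, H2-M3 and H2-Ea-ps), against 25.7%. Every TL+L sample lay below every PBS sample for 3 genes, against 21.8% of all genes.

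The number of calls depended on TL+L replicate 2. It was the highest of the 3 TL+L samples for 35 of 42 genes, and it reached or passed the lowest PBS value for 39, against 15 for TL+L replicate 1 and 9 for TL+L replicate 3. PBS replicate 3 was the highest PBS sample for 35. Without TL+L replicate 2, 14 genes were called, all lower (Cd74, Ctss, Erap1, H2-Aa, H2-Ab1, H2-Bl, H2-D1, H2-DMa, H2-DMb1, H2-Ea-ps, H2-Eb1, H2-M3, Psmb10 and Tapbp), and 40% of all genes were called. Leaving out any other PBS or TL+L sample gave 0 calls among these genes, with 0.101% to 1.16% of all genes called.

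The classical class I chains overlapped between the groups. H2-K1 (NCBI gene 14972) was at 810, 992 and 1290.3 CPM in PBS, 719, 957 and 649 CPM in TL+L, 750 CPM in TSeL and 825 CPM in TSeL+L. H2-D1 (14964) was at 1034.6, 1220.4 and 1501.7 CPM in PBS, 841, 1148.1 and 743 CPM in TL+L, 814 CPM in TSeL and 982 CPM in TSeL+L. In both genes PBS replicate 3 was the highest sample, and TL+L replicate 2 lay above PBS replicate 1. The log2 fold change in TL+L was -0.41 ± 0.25 (SE) for H2-K1 (edgeR adjusted p = 0.266) and -0.46 ± 0.24 for H2-D1 (adjusted p = 0.215). B2m (12010), the shared light chain, was at 507, 591 and 916 CPM in PBS and 413, 653 and 389 CPM in TL+L, a log2 fold change of -0.47 ± 0.31 (edgeR adjusted p = 0.301).

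Among the other class I chains 2 went different ways. H2-M3 (14991), which presents formylated peptides, was at 18.2, 18.2 and 26.5 CPM in PBS and 9.54, 14.3 and 8.98 CPM in TL+L. The groups did not overlap, and the log2 fold change was -0.94 ± 0.26 (edgeR adjusted p = 0.0566). H2-M2 (14990), a nonclassical chain, was at 1.04, 1.23 and 1.84 CPM in PBS and 2.44, 2.5 and 3.35 CPM in TL+L, and also did not overlap. Its log2 fold change was 1.01 ± 0.32 (edgeR adjusted p = 0.0758), at a level of only a few CPM. H2-T22 (15039), a ligand of gamma delta T cells, was at 103 ± 28.5 CPM in PBS and 116 ± 21.9 CPM in TL+L (SD, n = 3 each). Many of the H2-Q and H2-T rows are near-identical copies whose reads the authors' counting could split between rows, so their single values are uncertain; with all class I chain rows summed into 1 feature, 0 of the remaining genes were called as well.

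All 9 class I machinery genes were lower in TL+L, with log2 fold changes from -0.67 to -0.35 and no call. Tapbp (21356) was at 183, 257 and 327 CPM in PBS and 150, 197 and 135 CPM in TL+L (log2 fold change -0.67 ± 0.25, edgeR adjusted p = 0.11). Tap1 (21354), a TAP subunit, was at 81.3, 99.9 and 164 CPM in PBS and 84.6, 108 and 76.8 CPM in TL+L. The ranges of Tap1 overlap, and its log2 fold change was -0.36 ± 0.28 (edgeR adjusted p = 0.38). Psmb8 (16913) and Psmb9 (16912), immunoproteasome subunits, had log2 fold changes of -0.46 ± 0.30 (edgeR adjusted p = 0.295) and -0.55 ± 0.31 (adjusted p = 0.243). Nlrc5 (434341), the class I transactivator, was at 43.4, 54.9 and 85.9 CPM in PBS and 45.6, 59.3 and 39.1 CPM in TL+L, a log2 fold change of -0.35 ± 0.28 (edgeR adjusted p = 0.39).

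The A and E chains of class II were lower in TL+L replicates 1 and 3 than in any PBS sample, and near PBS in TL+L replicate 2. H2-Aa (14960), the A alpha chain, was at 564, 663 and 809 CPM in PBS, 339, 626 and 289 CPM in TL+L, 313 CPM in TSeL and 452 CPM in TSeL+L. Its log2 fold change in TL+L was -0.70 ± 0.32 (edgeR adjusted p = 0.169). H2-Ab1 (14961), its beta partner, was at 314, 416 and 461 CPM in PBS and 227, 368 and 186 CPM in TL+L (log2 fold change -0.61 ± 0.29, edgeR adjusted p = 0.177). H2-Eb1 (14969), the E beta chain, was at 290, 371 and 410 CPM in PBS and 199, 348 and 155 CPM in TL+L (-0.61 ± 0.32 on the log2 scale, edgeR adjusted p = 0.208). H2-Ea-ps (100504404), the E alpha row, was at 263, 313 and 348 CPM in PBS and 160, 259 and 130 CPM in TL+L. It was the only class II chain whose groups did not overlap, with a log2 fold change of -0.75 ± 0.27 (edgeR adjusted p = 0.105).

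The ratios between the chains of one heterodimer varied less across samples than the ratio of H2-Aa to H2-K1, which is across the arms. The highest value was 1.31 and 1.23 times the lowest for the A and E chains, against 1.67 times for H2-Aa to H2-K1. The heterodimer ratios were also lower than in PBS in most treated samples. The ratio of H2-Aa to H2-Ab1 CPM was 1.8, 1.6 and 1.76 in PBS, 1.49, 1.7 and 1.55 in TL+L, 1.37 in TSeL and 1.58 in TSeL+L. That of H2-Ea-ps to H2-Eb1 was 0.905, 0.843 and 0.85 in PBS, 0.805, 0.745 and 0.834 in TL+L, 0.849 in TSeL and 0.738 in TSeL+L. In the latter ratio the TL+L and TSeL+L samples lay below all PBS samples. Cd74 to H2-Ab1 ranged from 1.53 to 1.82. H2-Aa to H2-K1, across the arms, was 0.697, 0.669 and 0.627 in PBS, 0.472, 0.654 and 0.445 in TL+L, 0.417 in TSeL and 0.548 in TSeL+L. Only TL+L replicate 2 of the treated samples reached the PBS range in this ratio, as in that of H2-Aa to H2-Ab1. These pairs were chosen after values were seen and are given as descriptions.

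H2-DMa (14998), a chain of the peptide loader, was at 32.4, 42.2 and 42.7 CPM in PBS and 22.2, 32.8 and 18.1 CPM in TL+L. The groups overlap by 1 sample, and the log2 fold change was -0.68 ± 0.25 (edgeR adjusted p = 0.103). H2-Oa and H2-Ob, which form the DO modulator of H2-DM and are known mainly from B cells, were at 0.53 to 1.78 CPM in the 8 samples, too low to resolve a moderate difference. Cd74 (16149) was at 533, 751 and 787 CPM in PBS and 380, 635 and 305 CPM in TL+L (log2 fold change -0.65 ± 0.31, edgeR adjusted p = 0.182). Of its counts in the deposited transcript table, the longer transcript NM_001042605, of 1410 bases, took 22.3% to 24.8% in the 8 samples, with a mean of 24.1% ± 0.664 in PBS and 23.8% ± 1.32 in TL+L (SD, n = 3 each).

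Ciita (12265), the class II transactivator, was at 25.7, 19.4 and 42.8 CPM in PBS, 22, 39.7 and 15.6 CPM in TL+L, 18 CPM in TSeL and 25.8 CPM in TSeL+L. PBS replicate 3 and TL+L replicate 2 were the highest samples, and the groups overlapped throughout. The log2 fold change was -0.70 ± 0.62 in TSeL (edgeR adjusted p = 0.574) and -0.18 ± 0.60 in TSeL+L (adjusted p = 0.88). In TL+L it was -0.19 ± 0.42 (edgeR adjusted p = 0.771), and it became 0.20 when PBS replicate 3 was left out and 0.08 when TL+L replicate 3 was.

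Ctss (13040), cathepsin S, had the largest difference of the 42 genes in TL+L and in TSeL+L against PBS, but not in TSeL. It was at 475, 640 and 775 CPM in PBS, 142, 355 and 177 CPM in TL+L, 394 CPM in TSeL and 255 CPM in TSeL+L. Every treated sample lay below every PBS sample. The log2 fold change in TL+L was -1.49 ± 0.38, or 2.8-fold lower, and missed the threshold (edgeR adjusted p = 0.051). Its adjusted p ranged from 0.000991 to 0.158 over 20 alternatives, the highest without TL+L replicate 3. The ratio of Ctss to Cd74 CPM varied more than those between class II chains. It was 0.891, 0.852 and 0.985 in PBS, 0.374, 0.559 and 0.582 in TL+L, 1.12 in TSeL and 0.491 in TSeL+L. The TL+L and TSeL+L samples lay below all PBS samples in this ratio, and the TSeL sample above them.

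**Figure D2:**
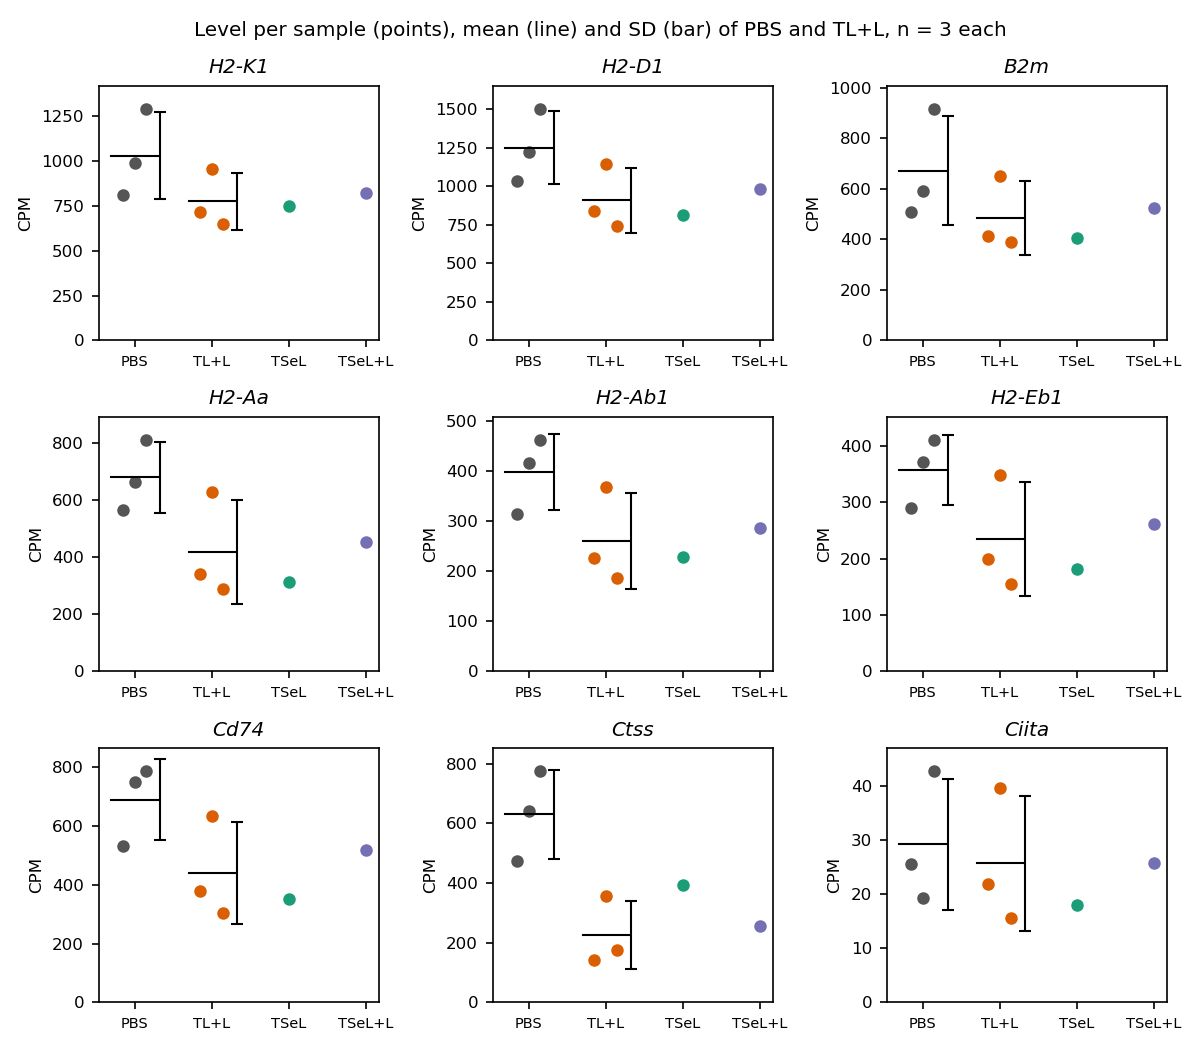
CPM of 9 genes in each sample (points) with the mean (line) and SD (bar) of the 3 PBS and the 3 TL+L samples; TSeL and TSeL+L are 1 sample each. The highest TL+L point in each panel is replicate 2, and Ctss is the panel of these 9 in which all 3 TL+L points lie below all PBS points.

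**Figure D3:**
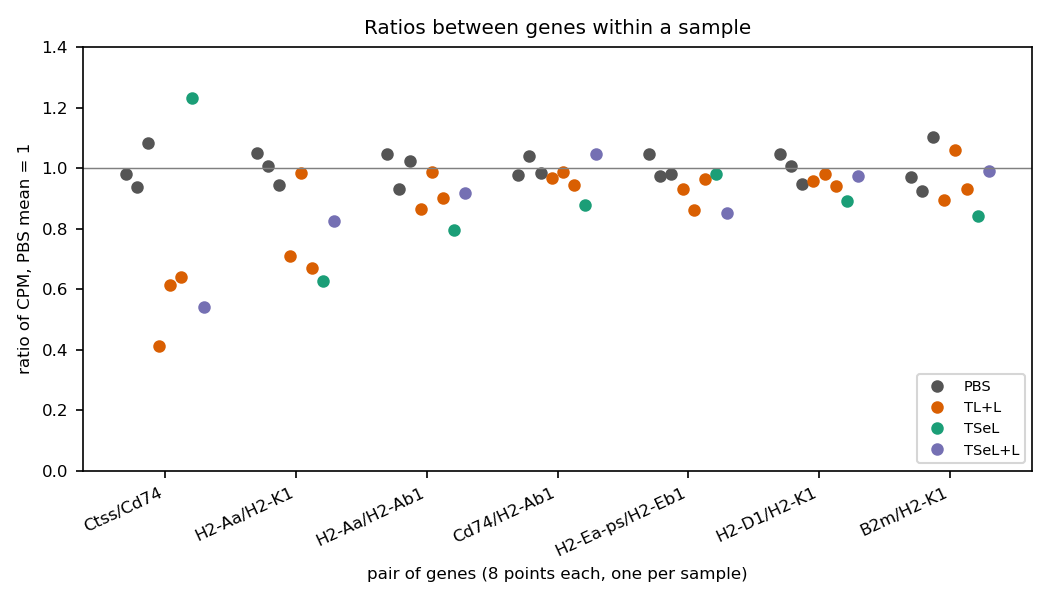
Ratio of the CPM of 2 genes in each of the 8 samples, divided by the mean of the 3 PBS samples (line at 1). Ctss to Cd74 is low in the 3 TL+L samples and in TSeL+L and high in TSeL, and H2-Aa to H2-K1 is low in TL+L replicates 1 and 3 and in TSeL; the other pairs lie closer to 1.

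For TSeL against PBS 37 of the 42 genes were lower, against 49.4% of all genes, with a median log2 fold change of -0.54, against 0.01. No gene of the set was called by edgeR or limma-voom, which each called 0% of all genes. At an unadjusted p under 0.05 there were 2 (H2-Ke6 and H2-Ea-ps), against 19.7% of all genes, and DESeq2 called 1, H2-Ke6, against 10.2% of all genes. The TSeL value lay below all 3 PBS values for 25 of 42 genes, against 33.4% of all genes. H2-Aa had a log2 fold change of -1.12 ± 0.49 (edgeR adjusted p = 0.273), Cd74 -0.97 ± 0.47 (adjusted p = 0.313), H2-K1 -0.46 ± 0.36 (adjusted p = 0.524) and Ctss -0.68 ± 0.55 (adjusted p = 0.536). H2-Ke6 (14979) went the other way, at 22.1 ± 4.37 CPM in PBS (SD, n = 3) against 42 CPM in TSeL, with a log2 fold change of 0.93 ± 0.24 (edgeR adjusted p = 0.142). The TSeL sample also held the most skeletal muscle RNA, with 83740.0 summed CPM over 6 muscle genes against 8669.0 to 24934.6 in PBS, 3887.5 to 21571.8 in TL+L and 17841.3 in TSeL+L. With these 6 muscle genes, the hair shaft markers and the hair keratin-associated protein genes left out of the scaling, the arm medians in TSeL were -0.46 for class I and -0.77 for class II. Other muscle genes stayed in, and the scaling trims genes with extreme ratios in any case, so this setting cannot show the part of muscle content. That part was not tested.

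For TSeL+L against PBS 37 of 42 genes were lower, against 50.2% of all genes, and the median was -0.37, against -0.00. None was called by edgeR, limma-voom or DESeq2, which called 0.0127%, 0.0253% and 9.98% of all genes. At an unadjusted p under 0.05 there were 0, against 20.6% of all genes. The TSeL+L value lay below all PBS values for 18 of 42 genes, against 36.4% of all genes. Ctss had the lowest fold change, -1.31 ± 0.58 on the log2 scale (edgeR adjusted p = 0.261), while H2-Aa was at -0.59 ± 0.47 (adjusted p = 0.504), Cd74 at -0.41 ± 0.45 (adjusted p = 0.626) and H2-K1 at -0.32 ± 0.36 (adjusted p = 0.629). H2-M2 was at 2.57 CPM in TSeL+L, above the highest PBS value of 1.84 CPM. The 3 comparisons with PBS share the same control samples, so that their common direction is not repeated evidence.

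No gene of the set was called between the treated groups. TSeL+L against TL+L had a median log2 fold change of 0.10 over the 42 genes, against -0.04 over all genes, and 0 genes were called by edgeR, limma-voom or DESeq2, with 0 at an unadjusted p under 0.05 (0.336% of all genes) and 0% of all genes called by edgeR. The class I and class II medians were 0.10 and 0.12; they were 0.28 and 0.50 without TL+L replicate 2, 0.05 and 0.03 without TL+L replicate 1, and 0.00 and -0.05 without TL+L replicate 3. H2-K1 was at 0.09 ± 0.35, H2-Aa at 0.11 ± 0.45 and Ctss at 0.18 ± 0.52 on the log2 scale, each with an edgeR adjusted p of 1. TSeL+L against TSeL had a median of 0.18, against -0.07, and 0 genes were called by the same 3 tools, with 1 at an unadjusted p under 0.05 (H2-Ke6), against 12.1% of all genes, and 0% of all genes called by edgeR. Here H2-Aa was at 0.53 ± 0.56 (edgeR adjusted p = 0.733) and Ctss at -0.63 ± 0.65 (adjusted p = 0.727), so the 2 class II arm genes pointed opposite ways without passing the test. Each of these comparisons rests on 1 TSeL+L sample.

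**Figure D4:**
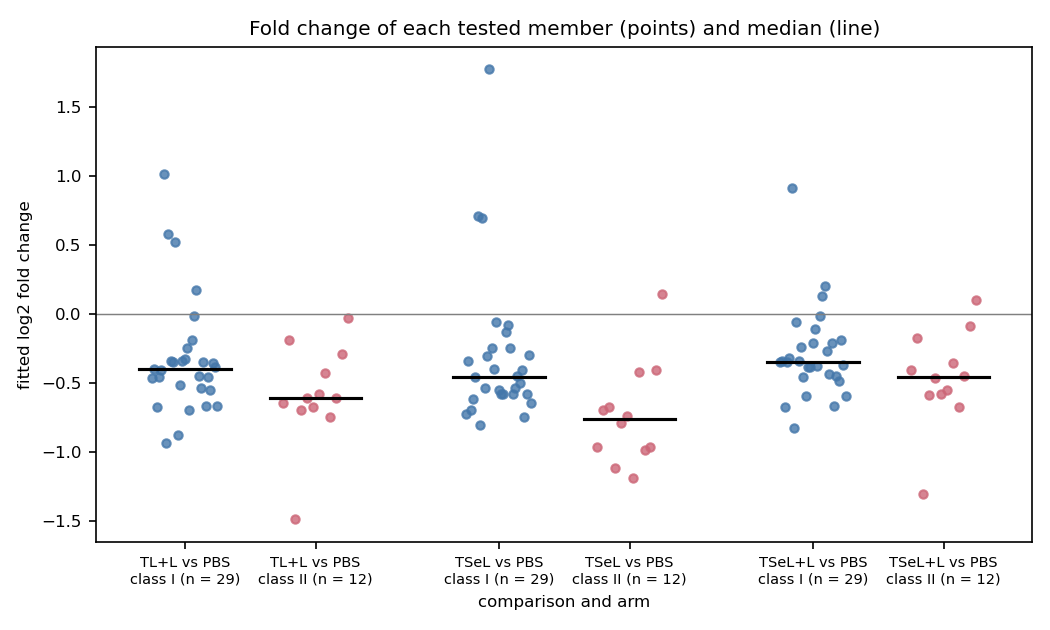
Fitted log2 fold change of every tested gene of the class I arm (29 genes) and class II arm (12 genes) in the 3 comparisons with PBS (points), with the median of each arm (black line). Most points lie below 0, and the class II medians (-0.61, -0.77 and -0.46) lie below the class I medians (-0.40, -0.46 and -0.35).

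Set side by side, the class II arm had a lower median than the class I arm in each comparison with PBS. The median log2 fold changes of class I and class II were -0.40 and -0.61 in TL+L, -0.46 and -0.77 in TSeL, and -0.35 and -0.46 in TSeL+L. The gaps between these medians, -0.21, -0.31 and -0.11, were less than or about the pooled replicate SD of the within-sample score below (0.31). The pooled SD between replicates was 0.30 for the class I and 0.41 for the class II arm, each taken alone. In TL+L 25 of 29 class I arm genes and 12 of 12 class II arm genes were lower, and 0 of either were called. Within a sample, the mean log2 CPM of the 9 tested class II chains minus that of the 20 tested class I chains does not depend on library scaling. It was 1.46, 1.84 and 1.25 in PBS, 1.22, 1.51 and 0.89 in TL+L, 1.01 in TSeL and 1.31 in TSeL+L. The mean was 1.52 ± 0.30 in PBS and 1.21 ± 0.31 in TL+L (SD, n = 3 each), and the groups overlap. The difference between these means, -0.31, moved to -0.15 when either PBS replicate 2 or TL+L replicate 3 was left out, and to -0.46 when TL+L replicate 2 was. The single TSeL sample differed from the PBS mean by -0.51 and TSeL+L by -0.20, beside a pooled replicate SD of 0.31 for this score. With only H2-K1 and H2-D1 against H2-Aa, H2-Ab1 and H2-Eb1 the difference was -1.30, -1.23 and -1.38 in PBS, -1.65, -1.28 and -1.77 in TL+L, -1.73 in TSeL and -1.48 in TSeL+L, and TL+L replicate 2 was the only treated sample within the PBS range.

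**Figure D5:**
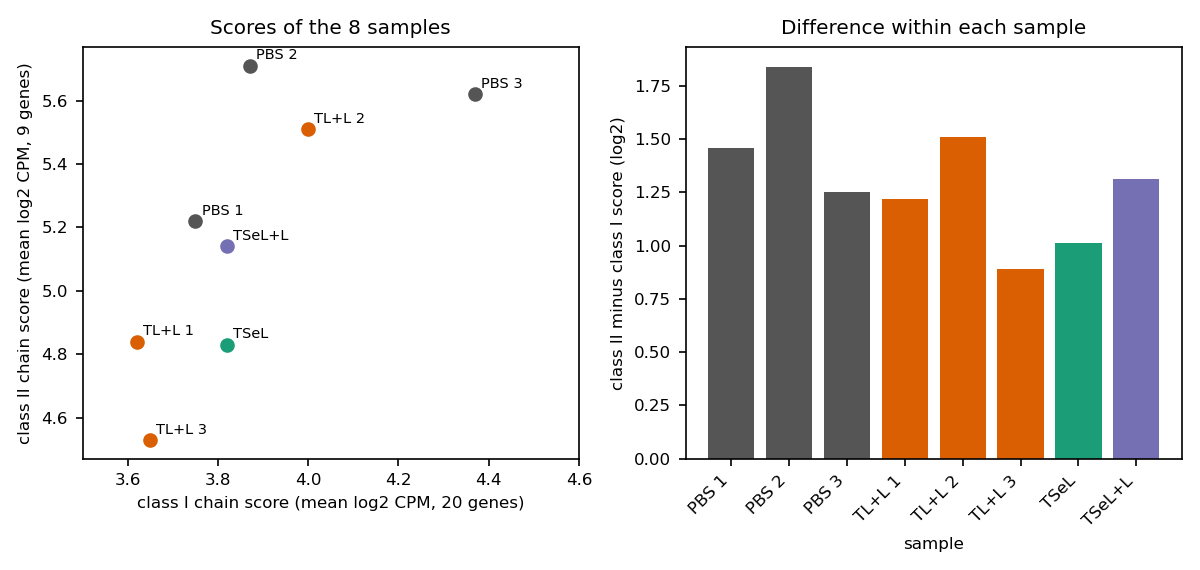
Left, mean log2 CPM of 20 class I chains (x) and 9 class II chains (y) in each of the 8 samples; right, bars of the difference between them in each sample. TL+L replicate 2 lies among the PBS samples in the left panel, and the bars of PBS (1.25 to 1.84) and TL+L (0.89 to 1.51) overlap.

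Genes around these pathways were examined in TL+L against PBS with lists chosen for the purpose, beside 12.8% of all genes called by edgeR, 13% by limma-voom and 25.7% by DESeq2. All 24 tested genes of interferon gamma signalling were lower, with a median log2 fold change of -1.14, against 0.01 over all genes. Of the 24, 3 were called by edgeR, near the 12.8% share of all genes. These were Jak2 (2.15-fold lower, edgeR adjusted p = 0.0271), the kinase below the receptor, Ifngr1 (1.89-fold, adjusted p = 0.0287), the receptor chain that binds the cytokine, and Irf2 (1.7-fold, adjusted p = 0.0429), a transcription factor. The guanylate-binding protein gene Gbp2, an interferon-induced gene, was at 48.1, 83.1 and 178 CPM in PBS and 21.2, 60.3 and 17.1 CPM in TL+L, again with PBS replicate 3 and TL+L replicate 2 as the highest of their groups. Gbp2 was chosen after its values were seen. DESeq2 called 8 of the 24 genes and limma-voom 3. Without TL+L replicate 2 edgeR called 15, beside 40% of all genes, while leaving out any other sample left 0, beside 0.101% to 1.16% of all genes.

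In the list of class II regulation and endosomal processing 9 of 15 genes were lower and 6 higher, with a median log2 fold change of -0.24. The edgeR test called 4, all lower, beside 12.8% of all genes, the share for each list below. March1, a ubiquitin ligase that removes class II from the surface, was at 45.9 ± 1.73 CPM in PBS and 17.1 ± 6.79 CPM in TL+L (SD, n = 3 each; 2.68-fold, edgeR adjusted p = 0.0318). The endosomal proteases Lgmn (legumain) and Ctsl (cathepsin L) fell 2.15-fold (edgeR adjusted p = 0.0346) and 1.77-fold (adjusted p = 0.0469), and the thiol reductase Ifi30 fell 1.64-fold (adjusted p = 0.0478). Among 6 costimulatory genes 5 were lower and 1 higher. Those called were Cd80 (4.34-fold lower, edgeR adjusted p = 0.0209) and Cd86 (2.66-fold lower, adjusted p = 0.0297), the ligands of CD28. Of 8 class I-like genes outside the H2- rows 6 were lower and 2 higher. Raet1e and Raet1d, ligands of the receptor NKG2D, were called. They fell from 1.91 ± 0.348 and 2.92 ± 0.704 CPM to 0.407 ± 0.204 and 0.542 ± 0.468 CPM (edgeR adjusted p = 0.0319 and 0.0447). Among 10 receptors of MHC molecules 9 were lower and 1 higher. Klra2 and Pirb, inhibitory receptors of the Ly49 and PIR families, were called, 5.23-fold and 3.31-fold lower (edgeR adjusted p = 0.0163 and 0.0367). None of the 14 genes of peptide supply and class I loading was called by edgeR or limma-voom. There were 4 at an unadjusted p under 0.05, against 36.3% of all genes, and 3 called by DESeq2, against 25.7%. Lnpep, a trimming peptidase, was at 17.8 ± 2.75 CPM in PBS and 11.3 ± 2.35 CPM in TL+L (edgeR adjusted p = 0.0786). Without 1 PBS sample or without TL+L replicate 1 or 3, at most 1 gene of any of these lists was called, a costimulatory gene, beside 0.101% to 1.16% of all genes.

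Fewer cells of a type and less RNA per cell cannot be told apart in bulk skin. Summed markers of Langerhans and dendritic cells overlapped, at 85.5 to 126 CPM in PBS and 88.4 to 143 CPM in TL+L, with 94.8 in TSeL and 118 in TSeL+L. Of these 11 markers 7 were lower and 4 higher in TL+L, with a median log2 fold change of -0.23. Only 1 was called, Clec10a, a lectin of dendritic cells and macrophages, which rose from 24.7 ± 1.89 to 43.9 ± 7.12 CPM (SD, n = 3 each). This was 1.78-fold (edgeR adjusted p = 0.0298), beside 12.8% of all genes called. Clec10a took a large part of the sums above, at 22.8, 24.8 and 26.5 CPM in PBS and 35.8, 48.8 and 47.3 CPM in TL+L. In TSeL it was at 30.6 CPM and in TSeL+L at 59.3 CPM, so the sums lean on this gene. Clec10a was not called without any 1 of the PBS samples or without TL+L replicate 3 (edgeR adjusted p of 0.0864 to 0.107). Cd207, a marker used for Langerhans cells, was low throughout, at 1.77, 3.56 and 2.19 CPM in PBS and 3.07, 4.04 and 6.97 CPM in TL+L. Macrophage and monocyte markers summed to 1337.6 to 1599.9 CPM in PBS, 587, 1281.4 and 771 CPM in TL+L, 685 CPM in TSeL and 1016.5 CPM in TSeL+L, so that every treated sample lay below PBS and TL+L replicate 2 was the nearest to it. All 10 were lower in TL+L, and 0 were called by edgeR, against 12.8% of all genes. There were 6 at an unadjusted p under 0.05, against 36.3% of all genes. The limma-voom test called 1, against 13%, and DESeq2 called 3, against 25.7%. Cd68 was at 97.4 ± 14.3 CPM in PBS and 36.7 ± 20.1 CPM in TL+L. The part of these cells in the class II and Ctss differences was not tested.

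All 6 neutrophil markers were lower in TL+L, and 4 were called (Cxcr2, Csf3r, Mmp8 and Ly6g), against 12.8% of all genes. Cxcr2 was 4.47-fold lower (edgeR adjusted p = 0.01). Leaving out 1 sample gave 0 to 4 calls in this list, beside 0.101% to 40% of all genes. B cell markers summed to 12.1 to 25.3 CPM over all samples, of which Blk made up most, and Cd79a and Ms4a1 were at 0 in TL+L replicate 1. T cell markers summed to 43.7 to 77.4 CPM in PBS and 36.5 to 58.4 CPM in TL+L. Hair shaft genes summed to 2.34 to 585 CPM in PBS, 1635.0 to 10866.6 CPM in TL+L, 29.1 CPM in TSeL and 5795.4 CPM in TSeL+L. In the B cell, T cell, muscle, hair and keratinocyte lists edgeR called 0 genes, with 3, 1, 0, 5 and 1 at an unadjusted p under 0.05, limma-voom called 0, 0, 0, 1 and 0, and DESeq2 called 2, 1, 0, 5 and 1. The tested genes in these lists numbered 7, 7, 6, 5 and 6. Over all genes the shares were 12.8% by edgeR, 36.3% at an unadjusted p under 0.05, 13% by limma-voom and 25.7% by DESeq2. The part of these lists in the differences above was not tested.

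The genes outside the set whose log2 CPM followed the mean of H2-Aa, H2-Ab1, H2-Eb1 and Cd74 most closely over the 8 samples were Lacc1 (Pearson r = 0.987), Tnfrsf13b (0.975), Marcks (0.973), Ly86 (0.970) and Lrrc32 (0.969). For the mean of H2-K1, H2-D1 and B2m they were Slamf8 (0.994), Lrrc32 (0.991), Ifi47 (0.990), Batf2 (0.987) and Xlr (0.985). These are the highest of all genes tested, the samples share their groups, and the values are given as descriptions.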

How the data were processed

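Skin RNA was extracted with Trizol and made into libraries with oligo-dT beads and an Illumina TruSeq kit, per the labels' protocols. The authors deposited expected counts (estimated reads per gene and per transcript) and TPM; Bowtie2 and RSEM appear, per the submitters' processing notes, with no version. Genome build, annotation and strand setting: not given in the sources used here. Whether reads of a gene and an antisense partner were told apart is therefore not known. Of the expected counts 88.7% were whole (tolerance 0), and all were rounded. The column code TS was taken to mean TSeL, and TSL to mean TSeL+L, and every value of these groups depends on that reading. The columns of each differed with mean chi-squares of 1.189 to 1.492 (genes with at least 40 counts in a pair), against 25.091 to 183.659 between PBS or TL+L samples, and were averaged.

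Genes were filtered with filterByExpr (15791 left) and tested two-sided in 1 fit of 8 samples with edgeR 4.0.16 in R 4.3.3, by its robust quasi-likelihood F-test after TMM scaling (factors 0.852 to 1.1); 4 residual degrees of freedom, common biological coefficient of variation 0.278. Calls were made at an adjusted p under 0.05 (Benjamini-Hochberg, all genes). SE is the size of the log2 fold change divided by the square root of F. TMM factors scale the CPM, and a prior count of 2 was used for log2 CPM. The test was tested on simulated data. Alternatives were DESeq2 1.42.0, limma-voom (limma 3.58.1), other size factors, other filters, other sets of samples, and a replicate block. Every tested gene of the set could be named, and of other lists up to 4 called genes or the 2 with the smallest p. The members, gene lists and motifs were chosen with earlier results of these data known. Promoters were matched by symbol to RefSeq (GRCm38.p6).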

Additional observations from a re-analysis of the deposited data

How the results depend on the processing

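The number of genes called in TL+L against PBS was 1 (Ctss) with size factors of the DESeq2 type, with only the groups compared and with limma-voom, 3 with DESeq2 and 14 with the 12 columns as separate samples, where 46.5% of all genes were called; leaving out 1 sample gave 0 to 14. With the 12 columns it was 19 in TSeL against PBS, 8 in TSeL+L against PBS and 4 in TSeL+L against TSeL, beside 42.3%, 46% and 42.9% of all genes, because near-identical columns then count as replicates. DESeq2 called 1 in TSeL against PBS (H2-Ke6), and leaving out 1 sample gave 0 to 1 there (H2-Ea-ps, without TL+L replicate 2) and 0 to 1 in TSeL+L against PBS (Ctss, without TL+L replicate 2). With library totals the median of all genes shifted to 0.15, -0.18 and 0.16 in TL+L, TSeL and TSeL+L against PBS, where class I and class II medians were -0.26 and -0.48, -0.64 and -0.95, and -0.19 and -0.30; in TSeL+L against TSeL the class I median became 0.45 at a median of all genes of 0.27. Over the samples left out, the TL+L medians ran from -0.58 to -0.16 for class I and from -0.98 to -0.39 for class II, the TSeL medians from -0.60 to -0.26 and from -0.90 to -0.71, and the TSeL+L medians from -0.47 to -0.10 and from -0.60 to -0.32, each class I value nearest 0 being without PBS replicate 3. The class II minus class I score relative to PBS ran from -0.46 to -0.15 in TL+L, -0.65 to -0.35 in TSeL and -0.34 to -0.04 in TSeL+L (nearest 0 without PBS replicate 2; in TL+L also without TL+L replicate 3). Reversals of direction were looked for only in the comparisons with PBS. The genes checked were H2-K1, H2-D1, B2m, Tap1, Nlrc5, Psmb8, Psmb9, H2-Aa, H2-Ab1, H2-Eb1, Cd74, Ciita, Ctss and H2-DMa. Among these, directions reversed, without any call, for Ciita in TL+L (0.20 without PBS replicate 3, 0.08 without TL+L replicate 3). In TSeL+L without PBS replicate 3 they reversed for Tap1 (0.19), Nlrc5 (0.14) and Ciita (0.22). Over all samples left out in turn the lowest values were -0.64 for Ciita in TL+L and -0.39, -0.41 and -0.41 for Tap1, Nlrc5 and Ciita in TSeL+L. The cause was not tested. The labels name no pairing of samples. Between PBS and TL+L samples of the same number the correlations of deviations from the group mean were -0.17, 0.13 and 0.21. With 3 samples per group these cannot show whether the samples were paired. With the sample numbers as a replicate block 0 genes of the set and 1066 of 15080 genes were called, with medians of -0.39 and -0.66. The fit of only the groups compared was not run for TSeL+L against TSeL, which leaves no residual degrees of freedom, and the lone samples could not be left out.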
